A study of Mus musculus with 5 samples.

Results

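The genes of endoplasmic reticulum (ER) folding and of the unfolded protein response examined here are 48 named genes of 19938 measured, read from the probe sets whose platform annotation carries a listed symbol. By role they are 3 members regarded as rich in pancreas (Pdia2, Erp27 and Fkbp11), 12 chaperones and cochaperones, 11 disulfide enzymes, 4 prolyl isomerases, 10 genes of ER-associated degradation and 8 stress sensors and factors. Whole pancreata taken at postnatal day 1 were read on 5 Affymetrix Mouse Gene ST arrays, each from a separately labelled sample. Of these, 2 are controls labelled as not recombinated, with no statement of which floxed or Cre alleles they carried. The other 3 are Pdx1cKO pancreata from the cross of Pdx1loxP with Elastase-Cre, and the series title gives the litter as shared. Elastase-Cre acts in exocrine cells, so other cells of the organ were read without being targeted. The targeted gene Pdx1 read 67.9 and 113 in control pancreata and 48.4, 48.4 and 42.9 in Pdx1cKO pancreata (limma adjusted p = 0.385). The labels do not say how the samples were made independent, so the tests measure only the spread between these arrays.

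Secreted proteins enter the ER unfolded, and chaperones of the Hsp70 and Hsp90 families, the lectins calnexin and calreticulin, disulfide isomerases and prolyl isomerases bring them to their final shape. Chains that fail are returned to the cytosol and destroyed, which is ER-associated degradation. When unfolded chains accumulate, the sensors IRE1 (Ern1), PERK (Eif2ak3) and ATF6 raise chaperone and degradation genes and slow translation, the unfolded protein response. Acinar cells of the pancreas are packed with rough ER because they make digestive enzymes in bulk.

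Many of these genes are known targets of the unfolded protein response through an ER stress response element (ERSE) in the promoter. The element was searched on both strands, as CCAAT and CCACG with any 9 bases between them, in the 250 bases before the gene start (RefSeq, GRCm38.p6). Of 42 members with a promoter in that table, 10 held it (23.8%), against 0.13% of 27025 genes. The promoters of Hspa5, the main Hsp70 of the ER, and Derl3, a derlin of ER-associated degradation, are shown because both hold the element. Their log2 fold changes (Pdx1cKO minus control) were -0.11 and -2.05, or -0.01 and -0.76 against control 2 alone. The promoter of Pdia2, a disulfide isomerase of the pancreas, is shown because none of the elements searched was found in it. Capitals mark the match on either strand, and each sequence runs 5′ to 3′ toward the gene start.
Hspa5, chr2:34771840-34772089, plus strand: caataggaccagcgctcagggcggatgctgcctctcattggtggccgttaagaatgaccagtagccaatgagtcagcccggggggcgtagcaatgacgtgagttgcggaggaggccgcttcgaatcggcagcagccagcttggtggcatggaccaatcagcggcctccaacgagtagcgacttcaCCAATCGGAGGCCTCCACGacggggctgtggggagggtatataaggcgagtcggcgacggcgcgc
Derl3, chr10:75893148-75893397, plus strand: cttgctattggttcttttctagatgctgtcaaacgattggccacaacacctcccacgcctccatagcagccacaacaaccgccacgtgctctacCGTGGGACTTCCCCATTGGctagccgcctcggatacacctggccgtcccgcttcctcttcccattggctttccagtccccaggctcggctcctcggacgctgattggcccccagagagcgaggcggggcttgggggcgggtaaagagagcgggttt
Pdia2, chr17:26199088-26199337, minus strand: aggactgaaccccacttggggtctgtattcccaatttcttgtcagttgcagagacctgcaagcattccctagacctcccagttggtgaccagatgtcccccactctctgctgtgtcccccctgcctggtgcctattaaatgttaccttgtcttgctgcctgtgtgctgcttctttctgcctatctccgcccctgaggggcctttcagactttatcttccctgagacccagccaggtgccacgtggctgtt

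The remaining ERSE matches are shown with 8 flanking bases on each side and with their position counted back from the gene start. Hsp90b1, the ER Hsp90, held 2 of them. The last line shows Herpud1, a scaffold of the degradation complex, with the shorter ERSE-II (ATTGG and CCACG with 1 base between them), which 0.037% of all genes held.
Calr, -162 to -144: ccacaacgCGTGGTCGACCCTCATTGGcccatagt
Canx, -145 to -127: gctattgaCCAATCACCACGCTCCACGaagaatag
Creld2, -126 to -108: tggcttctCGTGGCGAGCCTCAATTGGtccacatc
Dnajc3, -105 to -87: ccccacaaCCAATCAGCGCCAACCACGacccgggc
Ero1b, -201 to -183: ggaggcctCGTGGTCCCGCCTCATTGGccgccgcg
Hsp90b1, -107 to -89: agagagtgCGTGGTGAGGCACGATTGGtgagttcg
Hsp90b1, -212 to -194: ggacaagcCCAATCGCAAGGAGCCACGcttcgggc
Pdia6, -98 to -80: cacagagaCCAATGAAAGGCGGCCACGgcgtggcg
Syvn1, -44 to -26: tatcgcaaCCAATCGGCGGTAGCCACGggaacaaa
Herpud1, -52 to -42: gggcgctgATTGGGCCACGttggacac

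The UPRE, searched as TGACGTGG, was found in the promoters of Txndc5 and Txndc11 and in 0.603% of all genes. The ATF4 element CARE, searched as TGATGNAAT, was found in 0 of the 42 promoters and in 0.91% of all genes. The letters of ERSE, ERSE-II and UPRE overlap in part (CCACG, or its complement). A match describes the letters only, and a missing match says only that the letters are not in this window.

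Several arrays carried transcripts of other tissues. In control 2, 12 stomach markers summed to 17905, against 596 in control 1 and 865 to 938 in the knockout arrays, and 11 intestine markers to 5917, against 874 and 669 to 1077. All 3 Pdx1cKO values lay above both controls for 13 of 14 liver markers (sums 20115 to 54116 in Pdx1cKO and 6913 to 8325 in control pancreata), 11 of 11 granulocyte markers (1988 to 4972 in Pdx1cKO and 624 to 707 in control pancreata), 8 of 8 skeletal muscle markers (1065 to 7624 in Pdx1cKO and 576 to 648 in control pancreata) and 3 of 5 erythroid markers (912 to 2506 in Pdx1cKO and 441 to 538 in control pancreata). They lay below both controls for 19 of 20 digestive enzymes (sums 22213 to 37248 in Pdx1cKO and 94062 to 141764 in control pancreata) and 6 of 7 acinar transcription factors. The same held for 7 of 7 islet hormones (sums 3509 to 4675 in Pdx1cKO and 7545 to 7840 in control pancreata), with a median log2 fold change of -1.06. Over all genes, 12% lay above both controls in every Pdx1cKO array and 11.7% below both. No marker was listed at 0. The part of these tissues in the results was not tested, and fewer cells of a type and less RNA per cell cannot be told apart in whole organs.

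Pdx1cKO pancreata had lower levels of a small set of ER genes, while most of the folding machinery differed little. Pdia2 (-3.58 and -2.41) and Erp27 (-3.35 and -1.61) stayed below a log2 fold change of -0.9 against control 1 and control 2 alone. Against control 2 alone Ero1b (-0.84), Derl3 (-0.76) and Sel1l (-0.73) fell short of this cut. The share of all genes past it was not counted. The median log2 fold change (Pdx1cKO minus control) of the 48 members was -0.12, beside -0.00 over all genes. It was under -1 for 6 members (12.5%, against 1.09% of all genes), namely Pdia2, Erp27, Derl3, Ero1b, Edem2 and Sel1l, and over 1 for 0 (against 1.16%). Every Pdx1cKO value lay below both controls in 21 members (43.8%, against 11.7% of all genes) and above both in 8 (16.7%, against 12%). At a limma p adjusted over all genes, 0 members passed 0.05 in either direction, as did 0% of all genes. At an unadjusted limma p under 0.05, 12 members were lower (25%, against 5.04%) and 2 higher (4.17%, against 5.29%). By the methods' t-test 9 (18.8%, against 4.05% of all genes) were lower and 0 (0%, against 3.68% of all genes) higher before adjustment. Without control 1 the members did not exceed the background, with 7 (14.6%, against 15.1% of all genes) lower. The lower members were 23 (47.9%, against 18.5% of all genes) without control 2, 6 (12.5%, against 3.2% of all genes) without Pdx1cKO 1, 6 (12.5%, against 3.46% of all genes) without Pdx1cKO 2 and 6 (12.5%, against 3.46% of all genes) without Pdx1cKO 3, and 0 (0%, against 1.96% of all genes) with array weights. The 95% confidence interval lay wholly within 1 log2 of 0 for 37 members.

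**Figure D1:**
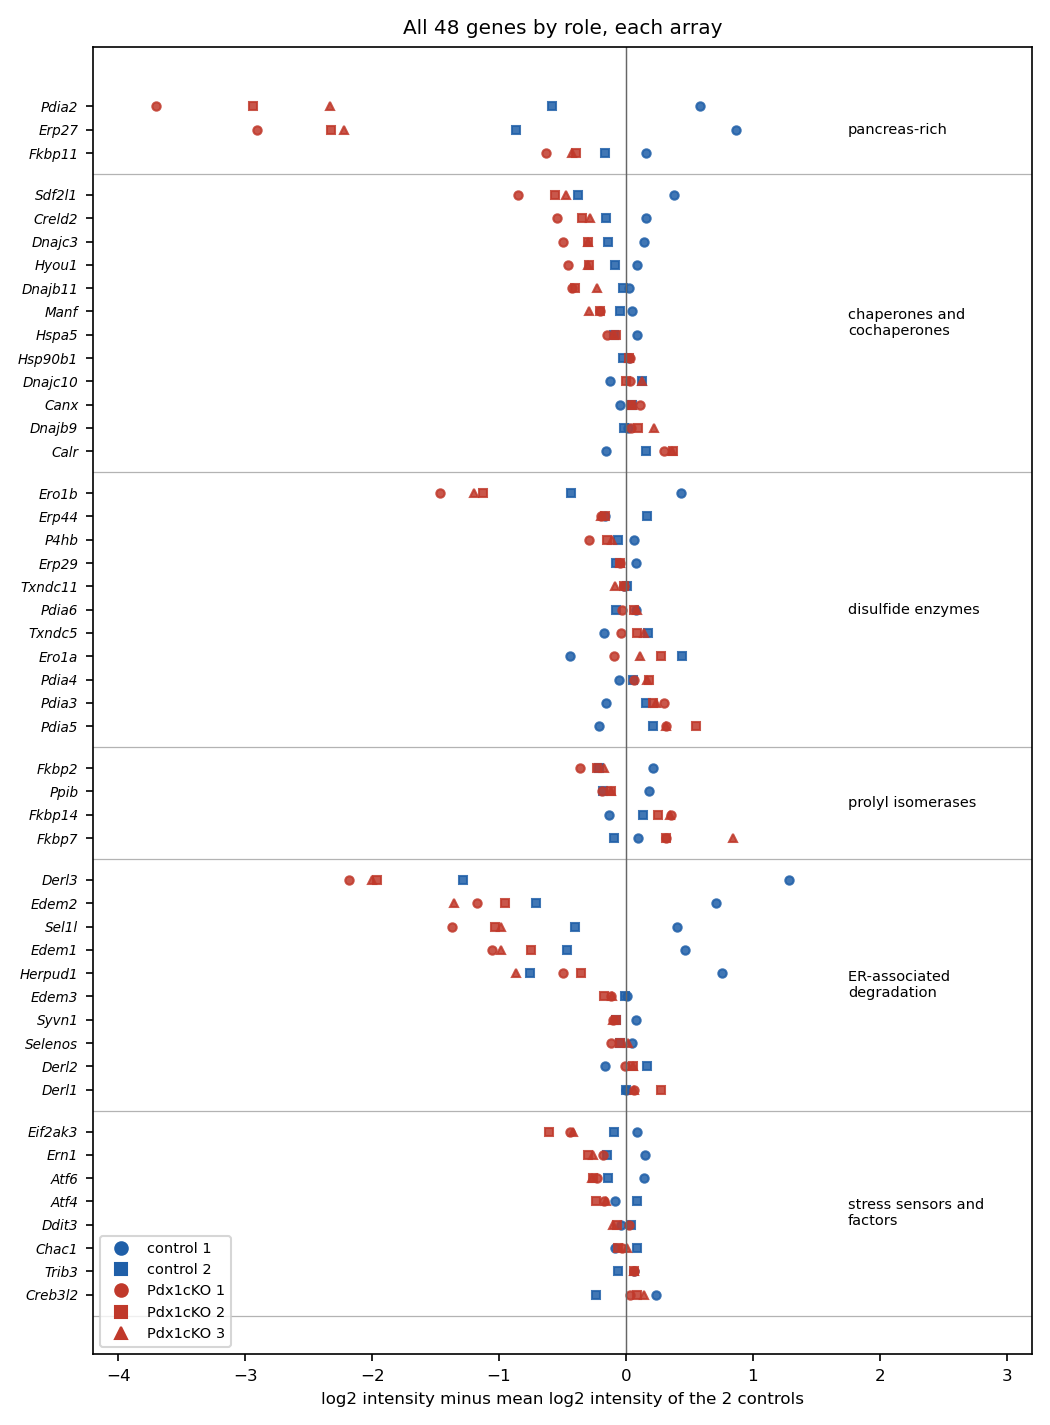
Log2 intensity of the 48 genes in every array after subtracting the control mean, by role (blue for control, red for Pdx1cKO, symbols for the replicate). Pdia2, Erp27, Ero1b, Derl3, Edem2, Sel1l and Edem1 lie far to the left in all 3 Pdx1cKO arrays, and their 2 controls lie apart.

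Pdia2 and Erp27, both of the protein disulfide isomerase family, stood furthest below control of all members. Pdia2, which forms and rearranges disulfide bonds, read 3842 and 1705 in control pancreata and 196, 333 and 509 in Pdx1cKO pancreata. The highest Pdx1cKO value was far below the lower control. The log2 fold change was -2.99 (standard error 0.61, limma adjusted p = 0.291), a level 7.96-fold lower and number 22 from the most negative of all genes. Erp27, a noncatalytic family member that binds unfolded chains, read 867 and 260 in control pancreata and 63.4, 94.7 and 102 in Pdx1cKO pancreata. Its groups were likewise apart, the log2 fold change being -2.48 (standard error 0.636, limma adjusted p = 0.356), or 5.59-fold lower. The Pdx1cKO values of Erp27 reach down to the array medians, which were at most 61.9, so the share of background in them, and in the fold, is unknown. The size depends on the control, since the controls differed 2.25-fold for Pdia2 and 3.34-fold for Erp27. Against control 1 alone Pdia2 was 12-fold lower, and against control 2 alone 5.3-fold. For Erp27 these were 10.2-fold and 3.06-fold. Both genes were lowest in Pdx1cKO 1 and highest in Pdx1cKO 3, the order of the digestive enzyme sums (22213, 26821 and 37248). This order was not particular to them. P4hb (1898, 2100 and 2155) and Pdia6 (384, 409 and 416) had it too, with small differences from control. Pdx1cKO 1 was the lowest Pdx1cKO array, without a tie, in 26 of the 48 members, a count not made over all genes. A link to the enzymes was not tested.

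Fkbp11, a prolyl isomerase of secretory tissues, differed far less. It read 101 and 80.7 in control pancreata and 58.4, 68.6 and 67.3 in Pdx1cKO pancreata, with no overlap. The log2 fold change was -0.48 (95% confidence interval -0.87 to -0.09, limma adjusted p = 0.394). Its values also lie near the array medians. The pancreas-rich median was -2.48 and that of the 45 other members -0.09. Digestive enzymes had a median of -2.15, the lowest being Ctrl, a chymotrypsin-like protease, at -5.60.

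**Figure D2:**
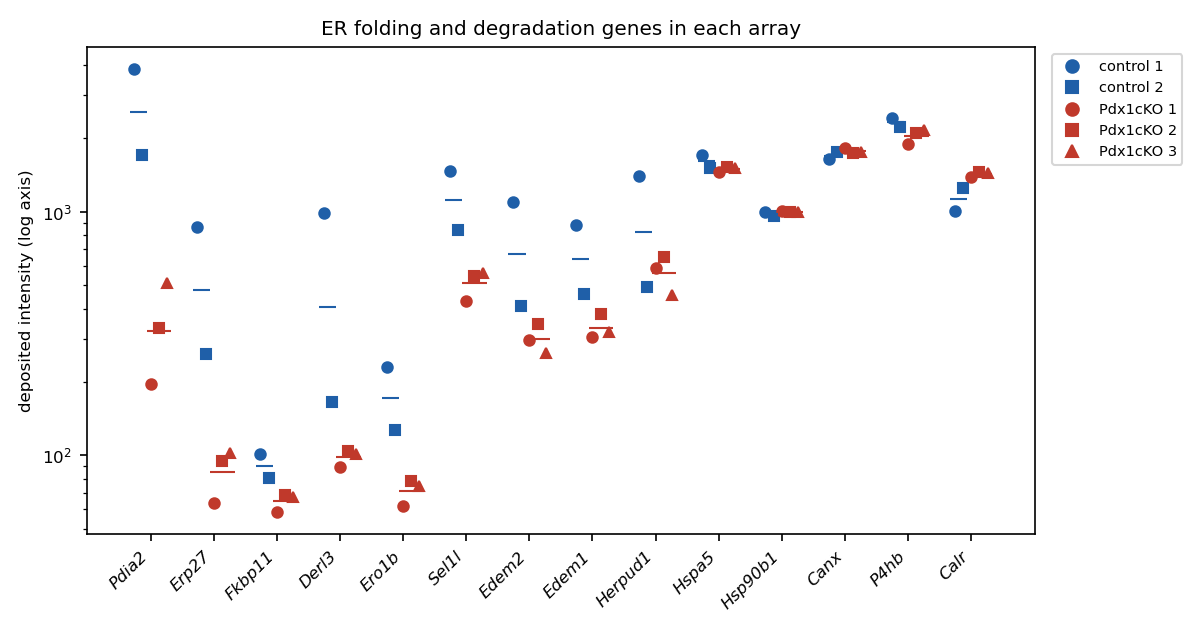
Deposited intensity (log axis) of 14 genes in every array, blue for control and red for Pdx1cKO, with bars at the geometric mean of each group. Pdia2 lies at 196 to 509 in Pdx1cKO against 1705 and 3842 in control, whereas Hspa5, Hsp90b1 and Canx keep to a narrow band.

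The abundant general chaperones had similar levels in both genotypes. Hspa5 (BiP) read 1714 and 1511 in control pancreata and 1452, 1526 and 1511 in Pdx1cKO pancreata, and the groups overlapped. Its log2 fold change was -0.11 (95% confidence interval -0.30 to 0.09). Hsp90b1 (GRP94) was at 0.03 (-0.03 to 0.09) and Canx, the membrane-bound lectin chaperone, at 0.07 (-0.06 to 0.19). Calr, its soluble counterpart, read 1010 and 1254 in control pancreata and 1384, 1457 and 1445 in Pdx1cKO pancreata. It was higher in every Pdx1cKO array, with a log2 fold change of 0.34 (95% confidence interval 0.03 to 0.66, limma adjusted p = 0.436). This was 0.50 against control 1 alone and 0.19 against control 2 alone. To the precision given, Hspa5 read 1511 in both control 2 and Pdx1cKO 3. Hsp90b1 read 996 in control 1, Pdx1cKO 2 and Pdx1cKO 3, and Canx 1753 in control 2 and Pdx1cKO 3. The part of such ties in the narrow intervals was not tested.

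Of the 12 chaperones and cochaperones, 6 lay below both controls in all 3 Pdx1cKO arrays, as did 11.7% of all genes. Sdf2l1, a partner of Dnajb11, read 678 and 402 in control pancreata and 289, 354 and 376 in Pdx1cKO pancreata, a difference of -0.63 (95% confidence interval -1.45 to 0.20). Hyou1 (GRP170), a nucleotide exchange factor for BiP, was at -0.35 (-0.59 to -0.11). Dnajb11 (ERdj3), which hands chains to BiP, was at -0.35 (-0.56 to -0.14). Manf, a secreted protein of stressed ER, was at -0.23 (-0.37 to -0.09), and Creld2, another secreted ER stress protein, at -0.39 (-0.79 to 0.01). Dnajc3 (p58IPK), which also restrains PERK, was at -0.36 (-0.72 to -0.01), its 2 probe sets holding the same values. Dnajb9 (ERdj4), a target of IRE1 signalling, read 216 and 212 in control pancreata and 220, 229 and 249 in Pdx1cKO pancreata, slightly above both controls. Dnajc10 (ERdj5), a disulfide reductase, was at 0.05 with overlapping groups.

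Among the 11 disulfide enzymes, Ero1b alone had a log2 fold change past 1 in size. Ero1b, an oxidase that recharges disulfide isomerases and is high in pancreas, read 231 and 127 in control pancreata and 61.9, 78.4 and 74.6 in Pdx1cKO pancreata. The groups did not overlap, and the log2 fold change was -1.27 (standard error 0.314, limma adjusted p = 0.346), or -1.70 against control 1 alone and -0.84 against control 2 alone. Its Pdx1cKO values too lie near the array medians. Its widely expressed paralog Ero1a read 161 and 296 in control pancreata and 205, 264 and 236 in Pdx1cKO pancreata, all Pdx1cKO values lying between the controls. P4hb, the founding disulfide isomerase, read 2425 and 2226 in control pancreata and 1898, 2100 and 2155 in Pdx1cKO pancreata. P4hb was thus only slightly below both controls, at -0.18 (95% confidence interval -0.41 to 0.04), in the arrays where Pdia2 was at -2.99. The difference between these paralogs was not tested.

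Pdia3 (ERp57), which works with calnexin and calreticulin on glycoproteins, was at 0.25 (-0.07 to 0.57) and Pdia5 at 0.39 (-0.09 to 0.88), both above the controls in every Pdx1cKO array. Pdia4 (ERp72) was at 0.13, but its 2 probe sets differed in sign (0.33 and -0.07), the latter reading only 31.3 to 34.3. Erp44, which retains Ero1 in the early secretory pathway, was at -0.19 (-0.52 to 0.13), or -0.02 against control 1 alone. Pdia6, Erp29, Txndc5 and Txndc11, further thioredoxin-fold proteins, lay between -0.04 and 0.07 with overlapping groups.

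The 4 prolyl isomerases had no common direction. Ppib (cyclophilin B), which acts on collagen, was at -0.14 and Fkbp2 at -0.25, with overlapping groups. Fkbp14, an isomerase of procollagen, read 96.1 and 116 in control pancreata and 135, 126 and 134 in Pdx1cKO pancreata, a difference of 0.32 (95% confidence interval 0.03 to 0.61, limma adjusted p = 0.436). Fkbp7 read 204 and 179 in control pancreata and 238, 238 and 343 in Pdx1cKO pancreata (0.49, 95% confidence interval -0.13 to 1.11). Both lay above the controls in every Pdx1cKO array. Mesenchyme markers summed to 24658 to 28023 in Pdx1cKO and 20083 to 24111 in control pancreata. Of 11 such markers 4 lay above both controls, against 12% of all genes. Their part in the prolyl isomerase differences was not tested.

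ER-associated degradation held the remaining large differences. Derl3, which helps move failed chains out of the ER and is high in secretory cells, read 989 and 166 in control pancreata and 89.5, 104 and 101 in Pdx1cKO pancreata. All Pdx1cKO values were the lower, but the controls differed 5.95-fold, and the log2 fold change of -2.05 had a standard error of 0.869 (limma adjusted p = 0.515). It was 10.1-fold lower against control 1 alone and 1.69-fold lower against control 2 alone. The Pdx1cKO values of Derl3 lie not far above the array medians, so the share of background in them is unknown. The paralogs Derl1 and Derl2 were at 0.13 and 0.04. Sel1l, the adaptor of the ubiquitin ligase Syvn1, read 1471 and 842 in control pancreata and 430, 545 and 561 in Pdx1cKO pancreata, clearly apart (-1.13, standard error 0.306, limma adjusted p = 0.372). Syvn1 (HRD1) itself read 229 and 205 in control pancreata and 202, 205 and 202 in Pdx1cKO pancreata, with overlap (-0.09).

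EDEM proteins mark misfolded glycoproteins for removal by trimming mannose. Edem2 read 1093 and 409 in control pancreata and 296, 346 and 262 in Pdx1cKO pancreata (-1.16, 95% confidence interval -2.59 to 0.27). Edem1 read 879 and 460 in control pancreata and 306, 379 and 321 in Pdx1cKO pancreata (-0.93, 95% confidence interval -1.89 to 0.03). In both, control 1 stood well above all other arrays. Edem3 differed little but evenly, at -0.13 (-0.20 to -0.06, limma adjusted p = 0.278). Herpud1 read 1396 and 491 in control pancreata and 587, 649 and 455 in Pdx1cKO pancreata, so that the groups overlapped, and its log2 fold change of -0.57 became 0.18 against control 2 alone. Selenos, a selenoprotein of this complex, was at -0.05.

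Of the 8 stress sensors and factors, Eif2ak3, Ern1, Atf6 and Atf4 lay below both controls in every Pdx1cKO array, and the rest overlapped. Over all genes 11.7% lay below both controls. Only Eif2ak3 and Atf4 had an unadjusted limma p under 0.05 (25%, against 5.04% of all genes lower). Eif2ak3 (PERK), the kinase that slows translation, read 238 and 210 in control pancreata and 165, 147 and 167 in Pdx1cKO pancreata. No values overlapped, and the log2 fold change was -0.49 (standard error 0.0914, limma adjusted p = 0.272). Ern1 (IRE1) was at -0.25 (-0.55 to 0.06) and Atf6 at -0.25 (-0.53 to 0.03). Atf4, whose translation PERK raises, was at -0.19 (limma adjusted p = 0.478). Ddit3 (CHOP), a factor of prolonged stress, read 66.1 and 69.8 in control pancreata and 69, 64.6 and 63.4 in Pdx1cKO pancreata. Its difference was -0.05 (95% confidence interval -0.20 to 0.10). Trib3 and Chac1, targets of ATF4 signalling, were at 0.06 (-0.06 to 0.18) and -0.03 (-0.22 to 0.16), and Creb3l2, a membrane-bound factor of secretory genes, at 0.09. Ddit3 and Trib3 also lie near the array medians.

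**Figure D3:**
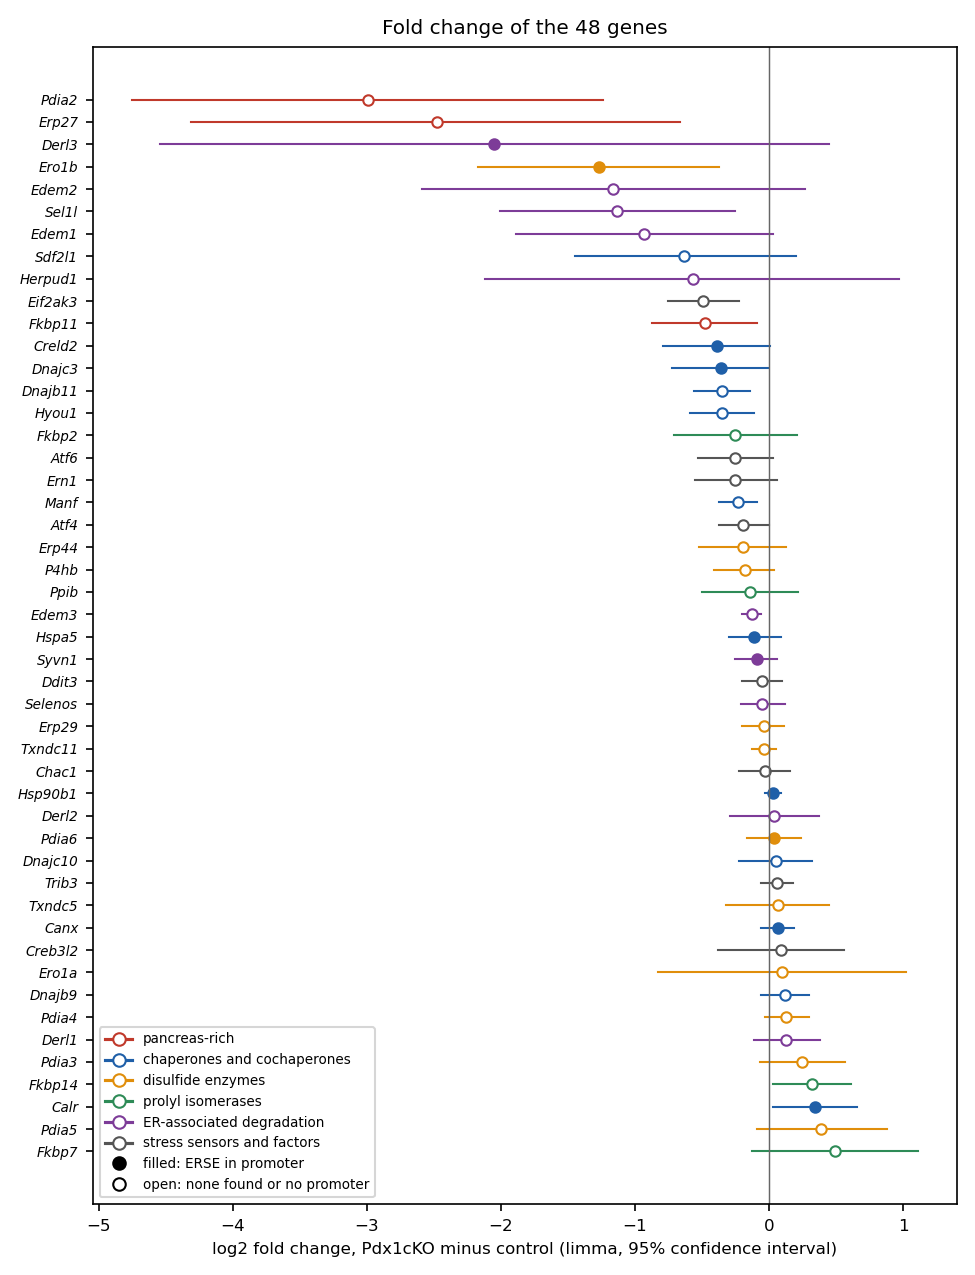
Log2 fold change of the 48 genes with 95% confidence intervals from limma, ordered by size and coloured by role, filled where the promoter holds ERSE. Points run from -2.99 (Pdia2) to 0.49 (Fkbp7), and filled points from -2.05 (Derl3) to 0.34 (Calr).

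Members with and without ERSE had similar medians. The 10 with it ranged from -2.05 (Derl3) to 0.34 (Calr), with a median of -0.10. The 32 with a promoter and no match had a median of -0.09 and ranged from -2.99 to 0.49. Every Pdx1cKO value lay below both controls in 4 of the 10 (Derl3, Ero1b, Creld2 and Dnajc3) and in 13 of the 32. Over all genes this share was 11.7%. Hspa5, Hsp90b1, Canx, Pdia6 and Syvn1, which hold the element, overlapped between the groups.

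Several of the members with large differences also separated the controls. Control 1 exceeded control 2 in 19 of the 21 members lying below both controls and in 32 of all 48. The controls differed by over 1 log2 in 5 members, namely Pdia2, Erp27, Derl3, Edem2 and Herpud1. These counts were not made over all genes. Against control 1 alone the log2 fold change was -1.87 for Edem2 and -1.53 for Sel1l, and against control 2 alone -0.45 and -0.73. Against each control alone, Pdia2 and Erp27 stayed below -0.9, while Ero1b was at -0.84 against control 2 alone. Control 2 is the array with stomach transcripts, and its digestive enzymes summed to 94062 against 141764 in control 1. Of the acinar transcription factors 4 were past 1 log2 without overlap. Bhlha15 (MIST1), a factor of secretory cells, read 305 and 120 in control pancreata and 61.6, 53.6 and 46.4 in Pdx1cKO pancreata. Rbpjl was at -1.20, Nr5a2 at -1.14, and Gata4 read 214 and 269 in control pancreata and 122, 122 and 116 in Pdx1cKO pancreata. The part of these differences in the members' values was not tested.

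Other genes of the same pathways are given beside the shares of all genes called, 5.04% lower and 5.29% higher. At an unadjusted limma p under 0.05, 2 of 34 further folding genes (5.88%) were lower, Pdilt (-0.15) and Cdnf (-0.06), and 1 higher, Mzb1 (0.49) (median 0.06). Of 21 further degradation genes 2 (9.52%) were lower, Rnf185 (-0.37) and Ubxn4 (-0.39), and 1 higher, Rnf139 (0.11) (median 0.00). Of 25 further stress signalling genes 2 (8%) were lower, Wfs1 (-0.15) and Serp1 (-0.35), and 1 higher, Ppp1r15a (0.34) (median -0.02). These genes were named after their values were seen. Mzb1 is also a plasma cell and B cell marker. Of 10 such markers 6 lay above both controls, against 12% of all genes, and 2 below both, against 11.7%. Their sums were 679 to 866 in Pdx1cKO and 556 to 657 in control pancreata, with their part not tested. Xbp1, which IRE1 activates by splicing, read 2733 and 1592 in control pancreata and 1612, 1612 and 1545 in Pdx1cKO pancreata, and only control 1 stood apart. A single gene value does not show the splicing. Agr2, a disulfide isomerase of mucous epithelium, read 115 and 1167 in control pancreata and 340, 210 and 184 in Pdx1cKO pancreata, highest in the control with stomach transcripts.

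Of 24 ATF4 target genes 3 (12.5%) were lower at an unadjusted limma p under 0.05, Gpt2 (-0.37), Nupr1 (-2.79), Wars (-0.53), and 1 higher, Cth (1.39) (median -0.10). Gpt2 and Wars were named after their values were seen. Nupr1, a stress gene abundant in acinar cells, read 2267 and 1016 in control pancreata and 188, 209 and 269 in Pdx1cKO pancreata (-2.79, limma adjusted p = 0.236). Cth, an enzyme of cysteine synthesis that is high in liver, read 71.1 and 60.2 in control pancreata and 206, 228 and 107 in Pdx1cKO pancreata (limma adjusted p = 0.4). Among the Pdx1cKO arrays it was lowest in the third, as was the liver marker sum (43576, 54116 and 20115), whose part was not tested. Of 46 translocation and export genes, which act before and after folding, 7 were lower (15.2%, against 5.04% of all genes) and 3 higher (6.52%, against 5.29%), and all lay between -0.60 and 0.45.

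**Figure D4:**
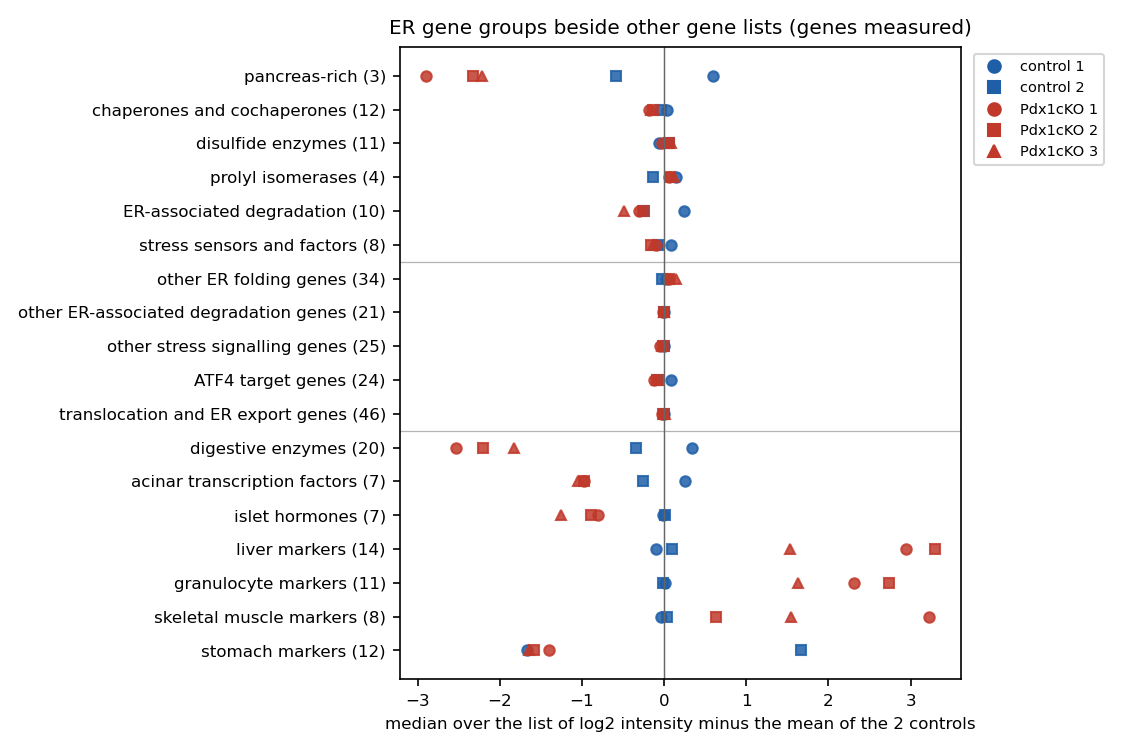
Median of each gene list in every array, as log2 intensity relative to the control mean (blue for control, red for Pdx1cKO). Pancreas-rich members lie at -2.90 to -2.22 in Pdx1cKO, digestive enzymes at -2.53 to -1.83, and the other 5 roles at -0.49 to 0.12.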

How the data were processed

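Total RNA of 2 control and 3 Pdx1cKO pancreata was hybridised to Affymetrix arrays. The authors deposited linear intensities for 28853 probe sets, prepared with GeneSpring GX, and how these were background-corrected, normalised and summarised is not stated in the sources at hand. Exact ties between arrays occur in 67.7% of probe sets. Detection calls were not used here, and the number of arrays limits the precision.

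Intensities were put on a log2 scale without a pseudocount. The 21789 probe sets annotated with a single symbol gave 19938 genes (mean of log2 values), 1621 with several symbols and 5443 without one being left out. Groups were taken from the labels and compared with limma 3.58.1 (R 4.3.3; lmFit, eBayes, Benjamini-Hochberg over all genes, threshold 0.05). An exact permutation test of 2 against 3 cannot go below 0.1. The fit was also run on simulated data with independent normal noise, in which 200 of 19938 genes, drawn at random, were changed. It recovered 62.9%, 88.9% and 97.0% of changes of 1, 2 and 4 log2, with 15 false among 180 calls. On the real arrays the same fit called 0 genes, and Ctrl at -5.60 had a limma adjusted p of 0.204. The recovered shares therefore do not carry over to genes whose arrays spread widely within a group.

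All members are named. Other genes are named where they are Xbp1, Agr2, Pdx1, the digestive enzyme with the largest difference, or a pathway or acinar factor list member past 1 log2 without overlap. The rule also covered digestive enzymes, hormones and markers of other tissues, which are given as counts and sums. Endothelium and macrophage markers are not given. Genes named outside it are said to be so in the text. The members and lists were chosen with earlier results of these data known. Alternatives were median scaling, quantile normalization, filters on level, other probe set rules, trend and robust priors, array weights, the methods' t-test, a replicate block and leaving out each array. Python 3.11.15 with pandas 2.3.3 and matplotlib 3.10.9 made the summaries and figures.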

Additional observations from a re-analysis of the deposited data

How the results depend on the processing

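Of 730 log2 fold changes over the members and Pdx1 under the alternatives, 706 kept direction and side of the threshold, 13 came to pass an adjusted p of 0.05 in the same direction (12 of members and 1 of Pdx1, -1.28 without control 1) and 11 turned sign, of which Erp29 without control 1 also passed. Those that turned were Dnajc10 (-0.07 without control 1, 0.18 without control 2), Erp29 (0.04 without control 1, -0.12 without control 2), Txndc5 (-0.11 without control 1, 0.24 without control 2), Ero1a (-0.34 without control 1, 0.54 without control 2), Ppib (0.04 without control 1, -0.32 without control 2), Herpud1 (0.18 without control 1, -1.32 without control 2), Derl2 (-0.13 without control 1, 0.20 without control 2), Pdia6 (0.12 without control 1, -0.04 without control 2), Chac1 (-0.12 without control 1, 0.06 without control 2), Creb3l2 (0.33 without control 1, -0.15 without control 2), and Derl2 with quantile normalization (-0.01). Adjusted calls of members appeared only when a control was dropped, and limma then takes the spread of the remaining control from the knockouts. Without control 1 these were Erp44 (lower) and Erp29, Hsp90b1 and Trib3 (higher), and without control 2 Atf6, Derl3, Edem2, Ero1b, Erp27, Erp29 and Syvn1 (lower) and Calr and Pdia3 (higher). Over all genes 8.94% lower and 8.04% higher passed without control 1, where members were 2.08% and 6.25%, and 10.4% lower and 4.99% higher without control 2, where members were 14.6% and 4.17%. Erp29 and Trib3 read the same in all 3 Pdx1cKO arrays, and Erp29 was called in opposite directions.

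Leaving out 1 array at a time, members passing an adjusted p numbered 0 to 7 lower and 0 to 3 higher, and an unadjusted p 6 to 23 lower and 0 to 5 higher. Over all genes the counts were 0 to 2072 and 0 to 1604 adjusted, and 638 to 3694 and 711 to 2958 unadjusted. The pancreas-rich median ranged from -3.35 to -1.61, that of all members from -0.14 to -0.10. At an unadjusted p, array weights left 0 members lower and 0 higher (391 and 241 genes), the methods' t-test 0 members higher, and testing only genes above the median level, which are fewer, 501 genes lower. After adjustment the methods' t-test called 7 genes lower and 3 higher, none of them members. The cause of the other shifts was not tested.

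With the replicate block, 3 members and 605 genes were lower at an unadjusted p. No source ties a replicate number to a pair of arrays within the litter, and deviations of same-numbered arrays correlated at 0.033 and -0.003. Signal over background is unknown, which limits values near the array medians, among them Fkbp11, Ddit3, Trib3 and the Pdx1cKO values of Erp27, Ero1b and Derl3.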
